A study of Mus musculus with 8 samples.

Results

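Gene expression was compared between FIH-KO and wild-type (WT) Lewis lung carcinoma (LLC) cells, both kept at 1% O2. LLC is a transplantable mouse lung carcinoma line. The comparison used 4 of the 8 RNA-seq libraries of the study, 2 of FIH-KO cells and 2 of WT cells cultured under hypoxia, and the other 4 libraries (the same genotypes at 21% O2) entered the count filter, the shared estimate of spread, the comparison between oxygen levels and the choice of genes for a check of low reads. The FIH-KO cells carried a CRISPR/Cas9 lesion directed to exon 2 of Hif1an and were grown from clones taken by single-cell dilution, so that any difference the clone acquired on its own moves with the genotype and cannot be told apart from it. Both genotypes were cultured for 16 h at the stated oxygen, with no other treatment. Nothing in the descriptions says that the 2 libraries of a group came from separate cultures, so the p-values measure only the spread between these libraries, which may be technical. The libraries are called FIH-KO 1, FIH-KO 2, WT 1 and WT 2 below, and those at 21% O2 carry the word normoxia. All genes that passed a filter on low counts are described, 13933 of the 53700 in the table.

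Factor inhibiting HIF (FIH, the product of Hif1an) is an oxygen-dependent asparaginyl hydroxylase. It hydroxylates an asparagine in the C-terminal activation domain of the HIF alpha subunits, which blocks the recruitment of the coactivators p300 and CBP. The prolyl hydroxylases of the Egln family mark the same subunits for destruction through VHL. FIH also hydroxylates ankyrin repeat proteins such as Notch1, and it stays active at lower oxygen than the prolyl hydroxylases do. HIF binds a short DNA core, the hypoxia response element, in the genes it controls.

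Hif1an, on the plus strand of chromosome 19 (GRCm39, chr19:44551286-44568723), had 729 and 784 reads in FIH-KO and 1609 and 1231 reads in WT. After scaling these were 45.5 and 51.0 CPM in FIH-KO and 90.2 and 84.0 CPM in WT, where CPM is the count scaled to a common library size by TMM. Both FIH-KO libraries lay below both WT libraries (log2 change of FIH-KO over WT -0.85, SE 0.12, adjusted p = 3.1e-04). The transcript was therefore reduced but present, and a whole-gene count does not show what share of it carries the lesion. Here and below, the test is edgeR's quasi-likelihood test with Benjamini-Hochberg adjustment over all 13933 genes, and a gene is said to have risen or fallen in FIH-KO where the adjusted p was under 0.05.

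The 4 libraries held 14519731 to 18177016 counted reads. Between the replicates of FIH-KO, 162 of 10473 genes with at least 50 reads differed by more than 2-fold, against 40 of 10560 between those of WT. A further check used genes that the libraries at 21% O2 put at no more than 3% of the other genotype's reads, with at least 100 reads in each library of that other genotype. For the 12 such genes lost in FIH-KO, FIH-KO 1 at 1% O2 held a median of 2.13% of the WT level and FIH-KO 2 a median of 0%. For the 11 such genes gained in FIH-KO, WT 1 and WT 2 held medians of 3.19% and 2.64% of the FIH-KO level. The part of these reads in the results was not tested. Of the markers of other cell types, 0 of 10 lymphoid genes and 1 of 10 endothelial genes passed the count filter, as did 5 of 10 macrophage and 7 of 12 fibroblast genes. Of the LLC and lung epithelial markers 4 of 15 passed, Vim, Krt8 and Krt18 among them. In bulk RNA, a change in the share of cells that use a gene and a change in RNA per cell cannot be told apart.

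The promoters of 7 gene lists described below, 5 of HIF targets, the interferon-stimulated genes and ribosome biogenesis, were searched for the motif of the factor known to act on each, in RefSeq windows of 250 bases before to 50 bases after the transcript start (build GRCm38.p6). GAAANNGAA, a shortened form of the interferon-stimulated response element, was searched on either strand. It was found in 19 of 34 windows of the interferon-stimulated genes (55.9%), and in 66.7% of the 15 windows of those that rose, against 6.8% of the 12464 windows of all tested genes. The hypoxia response element core, ACGTG or GCGTG, was common everywhere, in 62.3% of all windows, and was in 77.8% of the 36 windows of the glycolysis genes, 76.5% for mitophagy, stress and transcription targets, 66.7% for glycogen genes, in 9 of the 15 windows of angiogenic factors and in 55.6% for pH regulators. For the 12 windows of the glycolysis genes that rose the share was 58.3%. CACGTG, the E-box bound by Myc and Max, was in 16.4% of 61 windows of ribosome biogenesis genes and in 10.0% of all windows, and it contains ACGTG, so that each E-box also counts as a hypoxia response core. A match is a run of letters and not a measured site. Each stretch below lies upstream of the transcript start, with a match in capitals as it reads on the strand of the gene (CACGT is ACGTG on the other strand). Further matches, as in Oas3, Bst2 and Pgk1, are not marked in full. The stretches show the motif in interferon genes that rose, in HIF targets that rose or fell and in a nucleolar gene that fell.
Oas3 (chr5:120777696-120777764, minus strand): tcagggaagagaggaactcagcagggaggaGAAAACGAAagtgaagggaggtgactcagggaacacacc
Igtp (chr11:58199492-58199555, plus strand): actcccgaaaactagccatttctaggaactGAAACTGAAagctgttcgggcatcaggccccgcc
Bst2 (chr8:71537558-71537626, minus strand): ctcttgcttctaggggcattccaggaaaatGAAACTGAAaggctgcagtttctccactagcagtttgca
Ankrd37 (chr8:46000057-46000100, minus strand): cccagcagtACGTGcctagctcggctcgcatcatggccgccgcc
Pgk1 (chrX:106186920-106186984, plus strand): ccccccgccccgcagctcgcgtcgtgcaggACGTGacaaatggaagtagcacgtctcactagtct
Pdk1 (chr2:71873116-71873180, plus strand): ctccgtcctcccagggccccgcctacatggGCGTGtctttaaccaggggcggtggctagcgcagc
Car9 (chr4:43506978-43507025, plus strand): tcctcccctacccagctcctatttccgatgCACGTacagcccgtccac
Nop2 (chr6:125131793-125131858, plus strand): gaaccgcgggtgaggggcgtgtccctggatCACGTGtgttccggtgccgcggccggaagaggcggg

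At 1% O2, 3896 genes differed between FIH-KO and WT, 28.0% of those tested. Of these, 1964 (14.1%) were higher in FIH-KO and 1932 (13.9%) were lower. Most changes were modest, with a median absolute log2 change of 0.72 among the called genes and 66.5% of them under 2-fold. A change past 4-fold was called for 270 genes that rose and 261 that fell. Protein-coding genes were called more often (31.8% of 11632) than long noncoding RNAs (17.3% of 721). The call rate was 17.2% in the lowest of 4 equal groups of genes by mean count and 34.0% in the highest, so that fewer changes were detectable among low genes. With 2 libraries a group the values of the groups did not overlap for 4060 genes in the upward and 4535 in the downward direction, far more than passed the test. The number of calls depended on the WT libraries: it was 2170 without WT 1 and 2380 without WT 2, against 3696 without FIH-KO 1 and 3215 without FIH-KO 2. The counts of members of gene groups given below are to be read against 14.1% and 13.9%. Of the 11632 protein-coding genes 1886 rose and 1818 fell, so a list of such genes, or of genes with many reads, starts from higher shares. A list count that moved by more than 1.5 times when 1 library was left out is given with its other value in brackets.

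**Figure D1:**
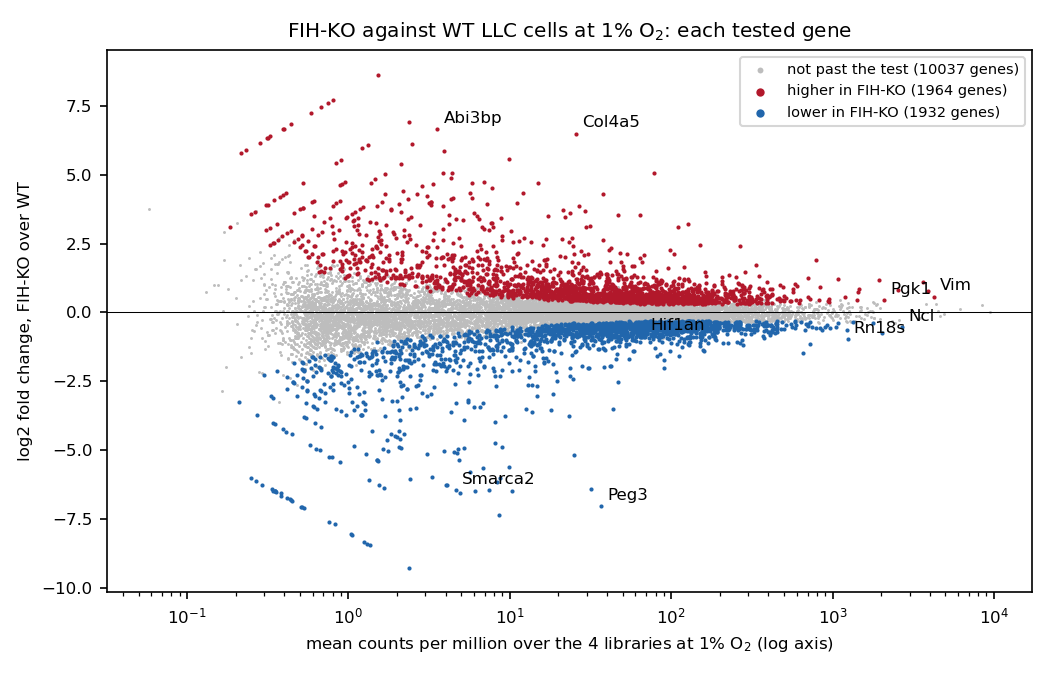
Log2 fold change of FIH-KO over WT at 1% O2 (y axis) against the mean CPM of the 4 libraries (x axis, log scale) for each tested gene, a point a gene. Red points are the 1964 genes called higher and blue points the 1932 called lower in FIH-KO, spread evenly around 0, and the changes past 4-fold sit mostly at low and middle levels.

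The 15 genes that rose most were low in WT. Col4a5, a chain of basement membrane collagen, had 49.2 and 52.2 CPM in FIH-KO and 0.560 and 0.546 CPM in WT (log2 change 6.50, SE 0.26, adjusted p = 9.6e-08). Amot, the angiomotin scaffold that binds YAP, had 109.5 and 196 CPM in FIH-KO and 5.10 and 3.96 CPM in WT (log2 change 5.06, SE 0.27, adjusted p = 9.5e-07). Both groups were far apart for these X-linked genes, and the X chromosome held 6 of the 15 genes that rose most, Col4a5, Amot, Nxt2, Maged2, Magee1 and Rnf128. Abi3bp, an extracellular matrix protein, had 2.87 and 11.1 CPM in FIH-KO and 0 and 0.137 CPM in WT. Most of its FIH-KO reads were in FIH-KO 2. Dppa4, a chromatin protein of pluripotent and germ cells, had 16.7 and 21.9 CPM in FIH-KO and 0.617 and 0.137 CPM in WT (log2 change 5.58, SE 0.38, adjusted p = 2.4e-06). Septin4, Padi1, Lynx1, Ces2g, Tppp and Rnf150 were further genes of this group, with log2 changes from 4.51 to 5.07.

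The genes that fell most were led by Peg3, a paternally expressed imprinted zinc finger gene, with 1.06 and 0 CPM in FIH-KO and 64.3 and 80.8 CPM in WT (log2 change -7.05, SE 0.68, adjusted p = 3.0e-05). Vldlr, a lipoprotein and reelin receptor, had 1.44 and 0 CPM in FIH-KO and 68.5 and 56.5 CPM in WT (log2 change -6.40, SE 0.51, adjusted p = 8.8e-06). All FIH-KO reads of both genes were in FIH-KO 1. Cstf2t, a retrogene for a polyadenylation factor, and Add3, an adducin of the spectrin skeleton, had log2 changes of -6.48 and -6.46. Smarca2, the BRM ATPase of SWI/SNF chromatin remodellers, had 0.187 and 0 CPM in FIH-KO against 8.97 and 9.28 CPM in WT, at least 47.7-fold lower when 3 reads are taken as the floor of each FIH-KO library. Hpse (heparanase), Ebf3, Lhfpl4, Pank1 and Prdm6 were likewise at the floor in FIH-KO, and at least 63.3-fold, 50.7-fold, 41.4-fold, 34.1-fold and 41.8-fold lower. Adgrl2, Clip3, Syt7, Ank2 and Dennd5b made up the 15, with log2 changes of -6.15 to -5.63. Of the 15, Cstf2t, Smarca2, Add3, Vldlr, Pank1 and Syt7 lie on chromosome 19 with Hif1an, and Adgrl2 and Ank2 on chromosome 3.

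**Figure D2:**
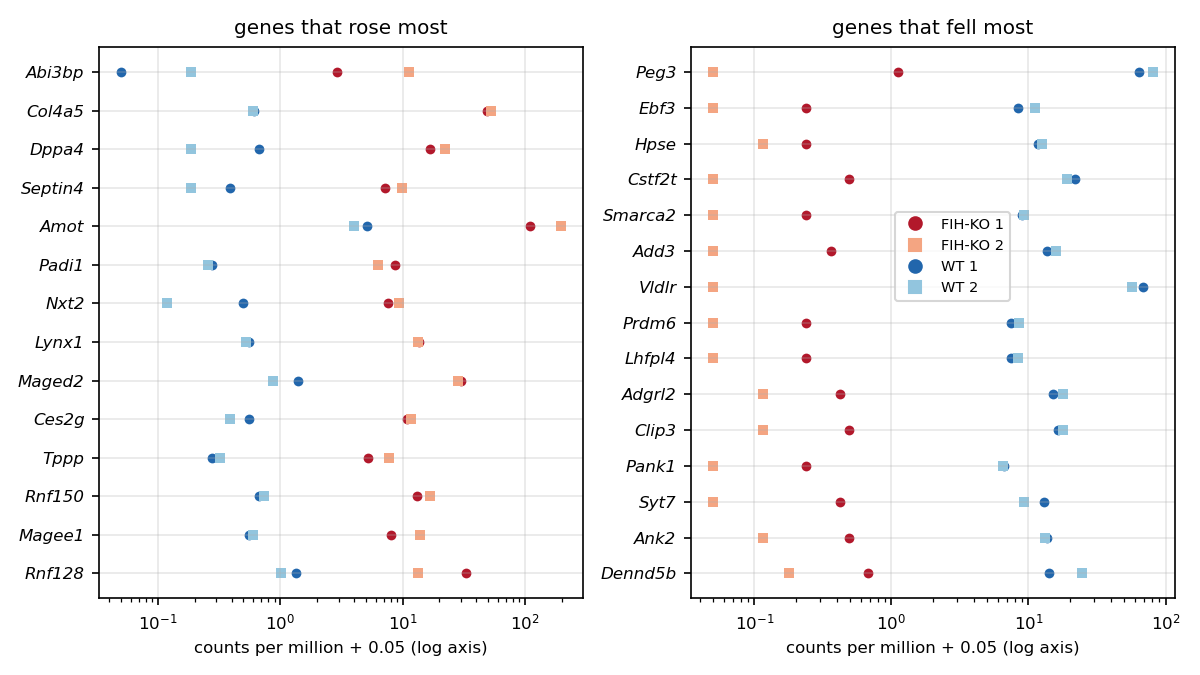
CPM + 0.05 in each library at 1% O2 (x axis, log scale) for genes that rose most (left) and that fell most (right), all with at least 50 reads on average and with no overlap between the groups. FIH-KO libraries are red and orange, WT libraries dark and light blue, and in the right panel FIH-KO 1 sits above FIH-KO 2 for every gene.

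Among the genes with most reads, FIH-KO held more transcript of the mesenchymal filament Vim, with 5442 and 4699 CPM in FIH-KO and 3613 and 3189 CPM in WT (log2 change 0.58, SE 0.14, adjusted p = 0.010, not past the test without WT 2, where adjusted p reached 0.086). Fn1, the matrix glycoprotein fibronectin, had 5533 and 4420.1 CPM in FIH-KO and 2328 and 2305 CPM in WT (log2 change 1.10, SE 0.16, adjusted p = 5.6e-04). Ftl1, the ferritin light chain that stores iron, had 2249.7 and 1506 CPM in FIH-KO and 1129 and 928 CPM in WT (log2 change 0.87, SE 0.18, adjusted p = 0.0045, not past the test without WT 2, where adjusted p reached 0.055). Ferritin has many pseudogenes, which makes its count less certain. Among those that fell, the nucleolar proteins Ncl and Npm1 held the most reads, and Npm1 had 1664 and 1372 CPM in FIH-KO and 2565 and 2487 CPM in WT (log2 change -0.73, SE 0.13, adjusted p = 0.0017). Ncl had 2322 and 2103 CPM in FIH-KO and 3389.9 and 3034 CPM in WT (log2 change -0.54, SE 0.15, adjusted p = 0.018, not past the test without FIH-KO 2 or WT 1, where adjusted p reached 0.15). Rn18s, the 18S ribosomal RNA, also fell, with 679 and 987 CPM in FIH-KO and 1432 and 1855 CPM in WT (log2 change -0.98, SE 0.20, adjusted p = 0.0040). It carries no poly(A) tail and is mostly removed by the mRNA selection of the kit.

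Among 7 tested genes of the HIF subunits and their coactivators, 2 rose and 1 fell. Hif1a, the main alpha subunit, had 364 and 436 CPM in FIH-KO and 426 and 502 CPM in WT (log2 change -0.21, SE 0.13, adjusted p = 0.25). Its partner Arnt fell, with 58.4 and 61.2 CPM in FIH-KO and 76.7 and 81.0 CPM in WT (log2 change -0.40, SE 0.11, adjusted p = 0.021, not past the test without FIH-KO 1, WT 1, WT 2, WT normoxia 1 or WT normoxia 2, without the count filter or with only the 4 libraries at 1% O2, where adjusted p reached 0.12). Arnt, the member that fell, is the only tested member from chromosomes 3 and 19, whose medians over all tested genes were -0.41 and -0.45. The 2 that rose were low in WT and are named after their values were seen. Arnt2, a relative of Arnt, had 1.87 and 2.21 CPM in FIH-KO and 0.280 and 0.273 CPM in WT. Cited1, which binds the coactivators, had 4.81 and 1.56 CPM in FIH-KO and 0.112 and 0.205 CPM in WT. A gene as low in all libraries as these were in WT would not have passed the count filter. This count of 2 is therefore not support for a direction of the list. The coactivators Ep300 and Crebbp, whose contact with HIF is blocked by FIH, did not pass the test, with log2 changes of 0.06 and 0.10. Among the oxygen sensors and their partners (12 tested, 2 rose, 3 fell), Egln3, the hypoxia-inducible prolyl hydroxylase PHD3, rose and had 823 and 642 CPM in FIH-KO and 426 and 389 CPM in WT (log2 change 0.85, SE 0.18, adjusted p = 0.0039). Egln1 and Vhl did not pass the test, at log2 changes of 0.08 and -0.11.

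The classes of HIF targets went in both directions. Of 24 glycolysis genes, 7 rose and 2 fell, with a median log2 change of 0.13 beside -0.03 over all genes (3 rose without FIH-KO 1 or WT 2 and 4 rose without WT 1). The list medians by library, relative to the WT mean, were 0.24 and 0.05 in FIH-KO and 0.11 and -0.11 in WT. FIH-KO 2 thus lay below WT 1. Gpi1, glucose-6-phosphate isomerase, had 2039 and 1562 CPM in FIH-KO and 1151 and 999.6 CPM in WT (log2 change 0.74, SE 0.15, adjusted p = 0.0037). Pdk1, the kinase that turns off pyruvate dehydrogenase, had 544 and 481 CPM in FIH-KO and 341 and 314 CPM in WT (log2 change 0.64, SE 0.19, adjusted p = 0.025, not past the test without FIH-KO 1, WT 1 or WT 2, where adjusted p reached 0.14). Pgk1, phosphoglycerate kinase, had 2597 and 2225 CPM in FIH-KO and 1899 and 1661 CPM in WT (log2 change 0.44, SE 0.13, adjusted p = 0.028, not past the test without FIH-KO 1 or WT 2 or with only the 4 libraries at 1% O2, where adjusted p reached 0.18). Of the glucose transporters, Slc2a3 fell, with 10.9 and 7.81 CPM in FIH-KO and 23.3 and 18.7 CPM in WT (log2 change -1.17, SE 0.21, adjusted p = 0.0016), while Slc2a1 did not pass the test (1157 and 626 CPM in FIH-KO and 809.7 and 699 CPM in WT) and turned direction without FIH-KO 1, from 0.24 to -0.23, while without FIH-KO 2 it was called higher (0.62, adjusted p = 0.0057). Hk2 (hexokinase 2) and Ldha (lactate dehydrogenase A) did not pass it either, at log2 changes of -0.13 and 0.32, although Ldha passed with DESeq2 (adjusted p = 0.040) and without the count filter (0.0075). Hk2 turned direction as well, to 0.13 without FIH-KO 2 and 0.12 without WT 1. Aldoc, the aldolase of nerve tissue, had 0.375 and 0.521 CPM in FIH-KO and 2.41 and 1.43 CPM in WT (log2 change -2.10, SE 0.48, adjusted p = 0.0069, not past the test without WT 1, where adjusted p reached 0.095).

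Of 10 glycogen genes 3 rose and 1 fell. Gbe1, the glycogen branching enzyme, had 297 and 174 CPM in FIH-KO and 100.4 and 85.7 CPM in WT (log2 change 1.34, SE 0.23, adjusted p = 0.0013), and Pygb, brain glycogen phosphorylase, had 200.1 and 208 CPM in FIH-KO and 108 and 137 CPM in WT (log2 change 0.74, SE 0.13, adjusted p = 0.0016). The angiogenic and secreted factors split, with 3 of 17 higher and 4 lower (5 rose without FIH-KO 2). Vegfd, a lymphangiogenic growth factor, had 36.2 and 45.0 CPM in FIH-KO and 9.81 and 8.60 CPM in WT (log2 change 2.14, SE 0.18, adjusted p = 1.3e-05), and Angpt2, the context-dependent Tie2 ligand, had 11.9 and 11.6 CPM in FIH-KO and 3.47 and 2.94 CPM in WT (log2 change 1.86, SE 0.23, adjusted p = 1.8e-04). Vegfc, the closest relative of Vegfd, went the other way (1.94 and 1.95 CPM in FIH-KO and 6.45 and 6.62 CPM in WT, log2 change -1.74), as did the stanniocalcins Stc1 and Stc2 (-1.69 and -2.28). Vegfa, the best known HIF target of this class, had 335 and 234 CPM in FIH-KO and 291 and 243 CPM in WT and did not pass the test (log2 change 0.09, SE 0.15, adjusted p = 0.69), and its small change turned direction without FIH-KO 1 (-0.15) and without WT 2 (-0.03). Among 24 mitophagy, stress and transcription targets 5 rose and 4 fell (3 rose without WT 2 and 2 fell without WT 1). Ankrd37, a hypoxia-induced ankyrin repeat gene whose promoter is among those shown above, rose and had 47.9 and 51.5 CPM in FIH-KO and 20.4 and 18.4 CPM in WT (log2 change 1.36, SE 0.21, adjusted p = 6.4e-04). Insig2, which holds back sterol synthesis, rose too (log2 change 0.96, SE 0.16, adjusted p = 0.0010), and the membrane protein gene Tmem45a fell (log2 change -1.97, SE 0.26, adjusted p = 4.2e-04). Bnip3, a mitophagy receptor, did not pass the test (log2 change 0.43, SE 0.22, adjusted p = 0.18), and it passed without the count filter and with the replicate block. Among 11 pH regulators 3 rose and 3 fell. Car5b, a mitochondrial carbonic anhydrase encoded on the X, rose (log2 change 4.02, SE 0.39, adjusted p = 3.0e-05). Car9, the cell-surface carbonic anhydrase that marks hypoxic tumours, was lower in FIH-KO, with 0.312 and 0.130 CPM in FIH-KO and 2.75 and 1.84 CPM in WT (log2 change -3.33, SE 0.53, adjusted p = 8.3e-04).

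The interferon-stimulated genes that passed the count filter rose more often than they fell, and some that were low in WT passed it through the FIH-KO libraries. Of 38 interferon-stimulated genes, 20 rose and 1 fell, with a median log2 change of 0.84 (12 rose without WT 1). Lgals3bp, a secreted glycoprotein that binds galectins, had 26.0 and 27.9 CPM in FIH-KO and 4.71 and 5.12 CPM in WT (log2 change 2.46, SE 0.16, adjusted p = 1.7e-06). Parp14, an ADP-ribosyltransferase, had 12.7 and 18.03 CPM in FIH-KO and 1.40 and 3.69 CPM in WT (log2 change 2.62, SE 0.39, adjusted p = 5.8e-04). Trim21, a cytosolic antibody receptor, had 6.43 and 6.51 CPM in FIH-KO and 3.03 and 2.18 CPM in WT (log2 change 1.30, SE 0.27, adjusted p = 0.0040). Oas3, which makes the second messenger that activates RNase L, had 6.43 and 3.45 CPM in FIH-KO and 1.18 and 0.956 CPM in WT (log2 change 2.20, SE 0.40, adjusted p = 0.0018), and its promoter is among those shown above. Igtp, an immunity-related GTPase, had 1.87 and 2.67 CPM in FIH-KO and 0.729 and 0.751 CPM in WT (log2 change 1.61, SE 0.37, adjusted p = 0.0074, not past the test without WT 1, where adjusted p reached 0.051). Bst2 (tetherin), which holds virus particles at the cell surface, had 9.68 and 9.50 CPM in FIH-KO and 4.596 and 6.21 CPM in WT (log2 change 0.83, SE 0.27, adjusted p = 0.039, not past the test without FIH-KO 1, FIH-KO 2, WT 1 or WT 2, where adjusted p reached 0.22). Isg15, the ubiquitin-like modifier, was low in all libraries (1.19 and 0.651 CPM in FIH-KO and 0.673 and 0.478 CPM in WT) and did not pass the test (log2 change 0.66, SE 0.54, adjusted p = 0.40). Ifitm3, which restricts virus entry, was the member that fell (log2 change -0.50, SE 0.13, adjusted p = 0.013, not past the test without FIH-KO 2 or WT 2, where adjusted p reached 0.11).

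The factors of interferon signalling rose more often than they fell. Of 26 interferon regulatory factors, STATs and nucleic acid sensors, 12 rose and 2 fell (7 rose without FIH-KO 2, 6 rose without WT 1 and 5 rose without WT 2). Stat2, a subunit of the factor that type I interferon activates, had 32.9 and 40.4 CPM in FIH-KO and 15.1 and 16.4 CPM in WT (log2 change 1.22, SE 0.19, adjusted p = 7.4e-04). Jak1, a kinase of the interferon receptors, had 510.4 and 438 CPM in FIH-KO and 267 and 262 CPM in WT (log2 change 0.84, SE 0.14, adjusted p = 9.4e-04). Jak2, of the same family, fell. Irf7, the factor that amplifies type I interferon, had 0.749 and 1.30 CPM in FIH-KO and 0.224 and 0.137 CPM in WT (log2 change 2.43, SE 0.73, adjusted p = 0.027, not past the test without FIH-KO 2, WT 1 or WT 2, where adjusted p reached 0.14). It had 4 and 2 reads in WT and passed the count filter through the FIH-KO libraries, and a gene as low in both genotypes would not have been counted. Of 21 genes of MHC class I presentation and the immunoproteasome, 7 rose and 3 fell (4 rose without WT 1, 5 fell without FIH-KO 1, 1 fell without FIH-KO 2 and 0 fell without WT 1). Tap1, a subunit of the peptide transporter, had 10.3 and 8.07 CPM in FIH-KO and 1.79 and 3.35 CPM in WT (log2 change 1.86, SE 0.29, adjusted p = 7.0e-04). Its partner Tap2 had 39.3 and 37.2 CPM in FIH-KO and 9.98 and 14.6 CPM in WT (log2 change 1.64, SE 0.21, adjusted p = 2.2e-04). Tapbp (tapasin), which docks class I molecules to them, had 95.4 and 93.1 CPM in FIH-KO and 37.0 and 40.7 CPM in WT (log2 change 1.28, SE 0.12, adjusted p = 2.8e-05). The classical heavy chains H2-K1 and H2-D1 did not pass the test, at -0.12 and 0.01. H2-K1 had 81.3 and 42.8 CPM in FIH-KO and 74.5 and 60.6 CPM in WT, and its log2 change was -0.62 without FIH-KO 1, where it passed the test (adjusted p = 0.015), and 0.27 without FIH-KO 2. Nlrc5, the transactivator of these genes, was lower (log2 change -1.08, SE 0.27, adjusted p = 0.011, not past the test without FIH-KO 2 or WT 1, where adjusted p reached 0.089). Of 19 chemokines and cytokines, 1 rose and 5 fell (3 rose without FIH-KO 2 and 3 fell without FIH-KO 2 or WT 1). Il11, a cytokine of the IL-6 family, had 5.75 and 8.40 CPM in FIH-KO and 34.0 and 28.8 CPM in WT (log2 change -2.15, SE 0.24, adjusted p = 9.8e-05). Of 13 ligands and checkpoints read by NK and T cells, 3 rose and 3 fell, led by Lgals9 (galectin-9), which had 26.0 and 36.9 CPM in FIH-KO and 2.91 and 2.66 CPM in WT (log2 change 3.49, SE 0.21, adjusted p = 1.4e-06).

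Many genes of autophagy and the lysosome rose. Of 43 tested, 24 rose and 1 fell, and the median log2 change was 0.50. Psap, the precursor of the saposins that help degrade sphingolipids, had 1009.8 and 971 CPM in FIH-KO and 458 and 381 CPM in WT (log2 change 1.24, SE 0.13, adjusted p = 5.3e-05). Lamp2, a main protein of the lysosomal membrane, had 358 and 343 CPM in FIH-KO and 165 and 171 CPM in WT (log2 change 1.06, SE 0.11, adjusted p = 6.2e-05). Ctsd, the aspartic protease cathepsin D, had 286 and 272 CPM in FIH-KO and 149 and 125 CPM in WT (log2 change 1.03, SE 0.12, adjusted p = 1.0e-04). Both FIH-KO libraries were above both WT libraries for each of these, and the groups overlapped for only 1 of all 3896 called genes. Mitf, a factor of the family that drives lysosomal genes, was the member that fell (log2 change -1.37, SE 0.23, adjusted p = 0.0011). Cholesterol synthesis and uptake genes followed, 11 of 27 higher and 0 lower, with a median of 0.41 (5 rose without FIH-KO 2, 4 rose without WT 1 and 3 rose without WT 2). Nsdhl, a sterol dehydrogenase encoded on the X, had 97.1 and 144 CPM in FIH-KO and 56.9 and 50.5 CPM in WT (log2 change 1.16, SE 0.23, adjusted p = 0.0030), and Hsd17b7, which acts beside it in the pathway, had 61.2 and 75.3 CPM in FIH-KO and 38.9 and 33.5 CPM in WT (log2 change 0.91, SE 0.16, adjusted p = 0.0016). FIH-KO 2 was above FIH-KO 1 for both. Fatty acid and lipid droplet genes split 5 up and 6 down of 34 (3 fell without WT 1). Of those, 5 of the 6 that fell lie on chromosomes 3 and 19, among them Fads1, a fatty acid desaturase (log2 change -0.88, SE 0.13, adjusted p = 4.6e-04), while Lpl, lipoprotein lipase, rose (log2 change 1.28, SE 0.25, adjusted p = 0.0024).

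Glutathione transferases couple electrophiles to glutathione. Of 25 listed, 15 passed the count filter, and of these 9 rose and 1 fell, with a median of 0.84. The 5 tested members off chromosomes 3 and 19 had a median of 1.43, with 3 that rose and 0 that fell. The highest log2 change of the list was 6.93. A member silent in WT passes that filter only through the FIH-KO libraries, which can raise the count of those that rose. Gstm1, which conjugates electrophiles, had 102 and 72.3 CPM in FIH-KO and 27.3 and 27.2 CPM in WT (log2 change 1.68, SE 0.21, adjusted p = 2.0e-04). Mgst3, a microsomal member, had 50.3 and 55.3 CPM in FIH-KO and 22.1 and 17.1 CPM in WT (log2 change 1.43, SE 0.20, adjusted p = 3.9e-04), and Gsta4, which clears lipid aldehydes, had 63.7 and 18.8 CPM in FIH-KO and 8.52 and 7.03 CPM in WT (log2 change 2.40, SE 0.43, adjusted p = 0.0018). The Gsta4 value differed more than 3-fold between the FIH-KO libraries. The Gstm genes are close paralogs in a cluster on chromosome 3, and their reads may be shared. Of 32 NRF2 targets and antioxidant genes, 13 rose and 2 fell (8 rose without FIH-KO 1, 4 rose without WT 2 and 5 fell without FIH-KO 1). Nqo1, a quinone reductase and a typical NRF2 target, had 96.4 and 55.8 CPM in FIH-KO and 24.2 and 18.2 CPM in WT (log2 change 1.84, SE 0.34, adjusted p = 0.0019). FIH-KO 1 was the higher of the FIH-KO libraries. Iron genes went both ways, 5 up and 4 down of 20 (7 fell without FIH-KO 1). Tfrc, the transferrin receptor that takes up iron, had 314 and 597 CPM in FIH-KO and 1020.4 and 975 CPM in WT (log2 change -1.13, SE 0.23, adjusted p = 0.0039), and Cp, the ferroxidase ceruloplasmin, had 111 and 94.1 CPM in FIH-KO and 29.0 and 22.4 CPM in WT (log2 change 1.99, SE 0.19, adjusted p = 2.8e-05).

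**Figure D3:**
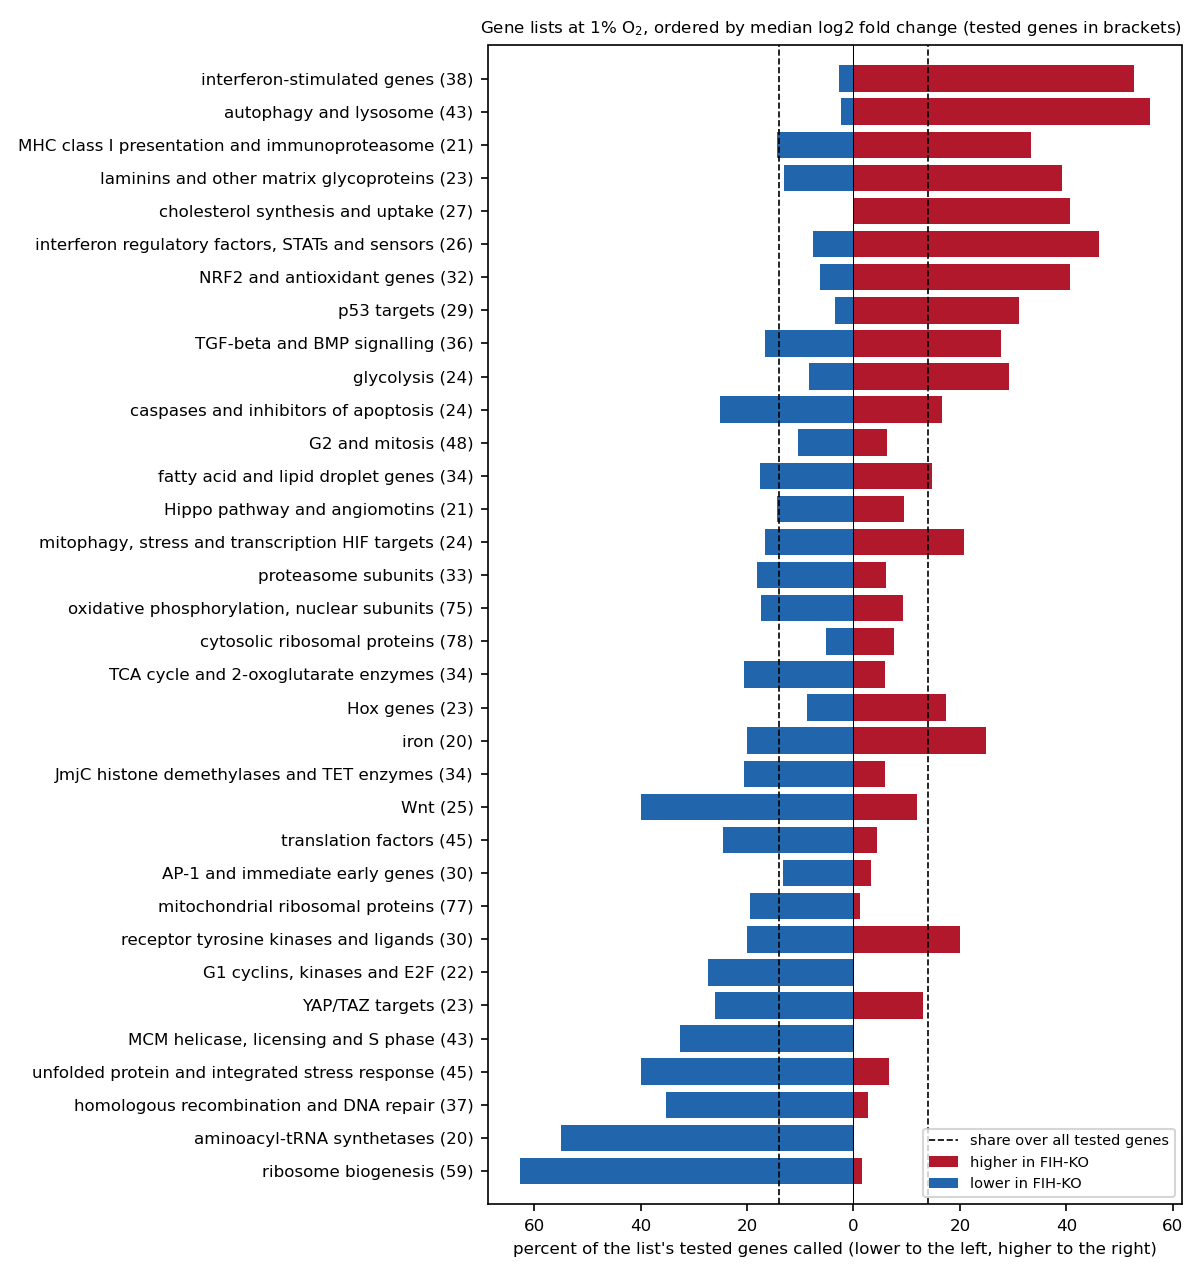
Percent of tested genes called higher (red, to the right) and lower (blue, to the left) in FIH-KO at 1% O2 for each gene list with at least 20 tested genes, ordered by median log2 fold change. Dashed lines mark 14.1% and 13.9%, the shares over all genes. Autophagy and lysosome and interferon-stimulated genes reach furthest to the right, and ribosome biogenesis and aminoacyl-tRNA synthetases furthest to the left.

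Myc fell, and ribosome biogenesis genes fell more often than they rose. Myc, the transcription factor that drives ribosome production, had 467 and 228 CPM in FIH-KO and 1169 and 749.6 CPM in WT (log2 change -1.47, SE 0.29, adjusted p = 0.0032). Mxd4, a repressor that competes with Myc for Max, went the other way, with 59.8 and 47.3 CPM in FIH-KO and 23.2 and 15.02 CPM in WT (log2 change 1.48, SE 0.23, adjusted p = 8.2e-04). Of the 10 tested genes of this network 1 rose and 3 fell. Ribosome biogenesis was the list with most genes that fell, 37 of 59, with 1 that rose and a median of -0.53 (18 fell without FIH-KO 2 and 10 fell without WT 1). Nolc1, a nucleolar phosphoprotein, had 177 and 155 CPM in FIH-KO and 370.1 and 328 CPM in WT (log2 change -1.07, SE 0.20, adjusted p = 0.0021). Utp4, a subunit of the small subunit processome, had 119 and 98.2 CPM in FIH-KO and 219.9 and 213 CPM in WT (log2 change -1.0, SE 0.15, adjusted p = 5.3e-04), and Gar1, a protein of the H/ACA RNPs, had 32.2 and 31.2 CPM in FIH-KO and 64.8 and 58.0 CPM in WT (log2 change -0.95, SE 0.16, adjusted p = 0.0011). Nop2, a ribosomal RNA methyltransferase whose promoter stretch is shown above, had 143 and 114 CPM in FIH-KO and 282 and 213 CPM in WT (log2 change -0.95, SE 0.19, adjusted p = 0.0034, not past the test without WT 1, where adjusted p reached 0.057). The 54 members off chromosomes 3 and 19 had a median of -0.51.

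The aminoacyl-tRNA synthetases, which load amino acids on tRNAs, had 0 members that rose. Of 20 tested, 0 rose and 11 fell, and every member had a log2 change below 0 with a median of -0.43 (6 fell without WT 1). Rars, for arginine, had 222 and 185 CPM in FIH-KO and 322 and 358 CPM in WT (log2 change -0.74, SE 0.12, adjusted p = 0.0011), and Iars, for isoleucine, had 298 and 316 CPM in FIH-KO and 519 and 484 CPM in WT (log2 change -0.71, SE 0.14, adjusted p = 0.0028). Of 45 translation factors 2 rose and 11 fell (7 fell without FIH-KO 2, 3 fell without WT 1 and 6 fell without WT 2). Eif4e, the cap-binding protein, had 104 and 114 CPM in FIH-KO and 200.03 and 201 CPM in WT (log2 change -0.88, SE 0.10, adjusted p = 1.3e-04), and Eef2k, the kinase that inhibits elongation, rose, with 91.2 and 81.0 CPM in FIH-KO and 48.1 and 46.1 CPM in WT (log2 change 0.87, SE 0.12, adjusted p = 4.4e-04). Of 78 cytosolic ribosomal protein genes 6 rose and 4 fell, and the median was 0.01. These counts rested on single libraries (2 rose without FIH-KO 1, 12 rose without FIH-KO 2, 3 rose without WT 1, 0 rose without WT 2, 9 fell without FIH-KO 1, 0 fell without FIH-KO 2, WT 1 or either WT normoxia library, 1 fell without WT 2, 2 fell without either FIH-KO normoxia library, the median was -0.14 without FIH-KO 1 and the median was -0.07 without WT 2). Of 77 mitochondrial ribosomal proteins 1 rose and 15 fell (7 fell without WT 1), and 6 of those that fell lie on chromosomes 3 and 19. Chaperonins fell in 6 of 18 cases and rose in 0 (3 fell without WT 1 or WT 2), with the mitochondrial chaperonin Hspd1 at 1008 and 905 CPM in FIH-KO and 1484 and 1516 CPM in WT (log2 change -0.65, SE 0.13, adjusted p = 0.0039).

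The unfolded protein and integrated stress responses, in which the cell slows translation and raises chaperones and amino acid supply, had more members that fell than rose. Of 45 genes, 3 rose and 18 fell, with a median of -0.34 (1 rose without FIH-KO 2 or WT 1 and 10 fell without WT 1). Herpud1, a part of endoplasmic reticulum degradation, had 44.2 and 48.0 CPM in FIH-KO and 137 and 89.0 CPM in WT (log2 change -1.30, SE 0.20, adjusted p = 6.3e-04). Members that rose included Eif2ak4, the amino acid sensing kinase GCN2, with 91.4 and 80.8 CPM in FIH-KO and 51.2 and 57.5 CPM in WT (log2 change 0.67, SE 0.13, adjusted p = 0.0030). The proteasome subunits went 2 up and 6 down of 33 (3 fell without FIH-KO 1, FIH-KO 2 or either WT normoxia library and 2 fell without WT 1 or WT 2). Psmd4, Psma5 and Psmb4, all on chromosome 3, were among those that fell, with log2 changes of -0.51, -0.45 and -0.45. Psma5 did not pass without WT 2 (adjusted p = 0.059), nor Psmb4 without WT 1 (0.097).

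**Figure D4:**
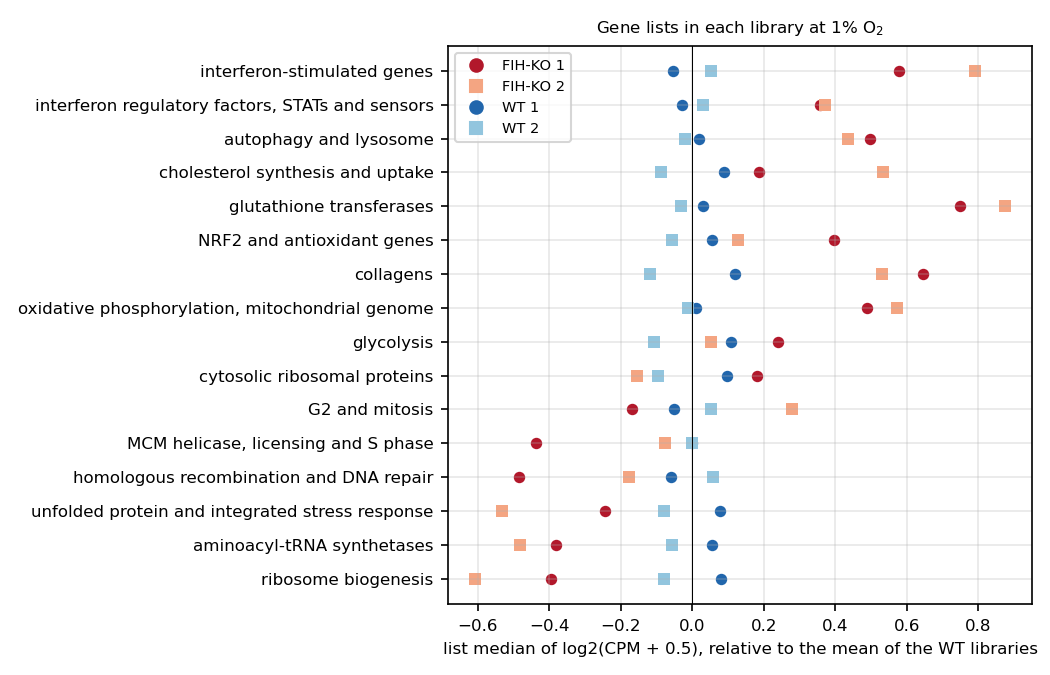
Median over each list of log2(CPM + 0.5) minus the gene's mean in the WT libraries (x axis), for the 4 libraries at 1% O2. Red circles and orange squares are FIH-KO 1 and 2, dark circles and light squares WT 1 and 2. For ribosome biogenesis, lysosome and interferon lists the FIH-KO libraries sit on the same side of both WT libraries, while for G2 and mitosis and cytosolic ribosomal proteins they sit on opposite sides of 0.

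Cell cycle genes differed between the FIH-KO libraries as well as between genotypes. Of 43 genes of the MCM helicase, origin licensing and S phase 0 rose and 14 fell (4 rose without FIH-KO 1, 4 fell without FIH-KO 1, 24 fell without FIH-KO 2, 2 fell without WT 1, 5 fell without WT 2 and 7 fell without either WT normoxia library). Their median score was -0.44 in FIH-KO 1 and -0.08 in FIH-KO 2. Mcm2, a subunit of the replicative helicase, had 133 and 142 CPM in FIH-KO and 249 and 215 CPM in WT (log2 change -0.75, SE 0.12, adjusted p = 0.0011). The 48 G2 and mitosis genes had median scores of -0.17 in FIH-KO 1 and 0.28 in FIH-KO 2, with 3 that rose and 5 that fell (22 rose without FIH-KO 1, 1 rose without FIH-KO 2, WT 1 or WT 2, 0 fell without FIH-KO 1 or WT 2, 14 fell without FIH-KO 2, 1 fell without WT 1 and 2 fell without either FIH-KO normoxia library or either WT normoxia library). No direction can be given for that list. The phosphatase Cdc25a, which starts S phase, had 25.7 and 35.3 CPM in FIH-KO and 61.5 and 63.2 CPM in WT (log2 change -1.03, SE 0.17, adjusted p = 0.0011), and Ccne2, cyclin E2, had 23.8 and 33.1 CPM in FIH-KO and 57.2 and 50.6 CPM in WT (log2 change -0.92, SE 0.17, adjusted p = 0.0018). These were among the 6 of 22 G1 genes that fell, with 0 that rose. Ccnd1, cyclin D1, did not pass the test (log2 change -0.11). Homologous recombination and repair genes fell in 13 of 37 cases and rose in 1 with a median of -0.36 (6 fell without WT 1 and 5 fell without WT 2). Atm, the kinase that answers double-strand breaks, had 53.9 and 64.2 CPM in FIH-KO and 94.4 and 107 CPM in WT (log2 change -0.77, SE 0.12, adjusted p = 7.7e-04), and Exo1, an exonuclease of resection, had 32.2 and 42.5 CPM in FIH-KO and 63.4 and 73.5 CPM in WT (log2 change -0.87, SE 0.16, adjusted p = 0.0019).

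Of 29 p53 targets 9 rose and 1 fell (4 rose without WT 2 and 4 fell without FIH-KO 1). Trp53inp1, a stress protein of autophagy and cell death, had 220.3 and 145 CPM in FIH-KO and 62.8 and 53.9 CPM in WT (log2 change 1.65, SE 0.21, adjusted p = 2.3e-04), and Sesn1, a sestrin that restrains mTORC1, had 31.4 and 46.9 CPM in FIH-KO and 12.0 and 16.9 CPM in WT (log2 change 1.44, SE 0.25, adjusted p = 0.0014). Cdkn1a, the p21 inhibitor and the best known p53 target, did not pass the test (428 and 284 CPM in FIH-KO and 340.2 and 275 CPM in WT, log2 change 0.21, SE 0.18, adjusted p = 0.41), and its log2 change was -0.07 without FIH-KO 1 and 0.48 without FIH-KO 2, where it passed (adjusted p = 0.035). Of 15 BCL2 family genes 4 rose and 2 fell. Bmf, a BH3-only killer, had 9.43 and 7.55 CPM in FIH-KO and 0.785 and 0.819 CPM in WT (log2 change 3.39, SE 0.32, adjusted p = 2.8e-05), and the survival members Bcl2 and Bcl2l1 rose as well (log2 changes 0.72 and 0.62). The 2 that fell were the survival member Mcl1 and Bcl2l13. Caspases and inhibitors of apoptosis went 4 up and 6 down of 24 (3 fell without FIH-KO 1 and 2 fell without WT 1 or WT 2), with Gsdmd, the pore former of pyroptosis, at 17.0 and 17.0 CPM in FIH-KO and 6.73 and 7.24 CPM in WT (log2 change 1.28, SE 0.18, adjusted p = 4.4e-04).

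For transcripts of the mitochondrial genome, all 13 tested had a log2 change above 0, with a median of 0.56, and 5 of them passed the test (3 rose without WT 2). mt-Nd2, a subunit of complex I, had 2338 and 3051 CPM in FIH-KO and 1155 and 1215 CPM in WT (log2 change 1.19, SE 0.15, adjusted p = 2.0e-04). mt-Cytb, of complex III, had 4455 and 5466 CPM in FIH-KO and 2955 and 2775 CPM in WT (log2 change 0.79, SE 0.16, adjusted p = 0.0038). The nuclear subunits of the same complexes went 7 up and 13 down of 75 with a median of 0.02 (4 rose without WT 1, 1 rose without WT 2, 13 rose without either FIH-KO normoxia library, 4 fell without WT 1, 8 fell without WT 2 and 6 fell without either WT normoxia library). Of the TCA cycle and 2-oxoglutarate enzymes 2 of 34 rose and 7 fell (4 rose without FIH-KO 1 or either FIH-KO normoxia library). Gls2, a mitochondrial glutaminase, had 9.87 and 5.86 CPM in FIH-KO and 39.1 and 39.4 CPM in WT (log2 change -2.32, SE 0.23, adjusted p = 3.3e-05). Idh1, the cytosolic enzyme that makes 2-oxoglutarate, the cosubstrate of FIH, had 242 and 347 CPM in FIH-KO and 117 and 123 CPM in WT (log2 change 1.30, SE 0.25, adjusted p = 0.0027).

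Of 26 collagens 17 passed the count filter, and of these 8 were higher and 0 lower, with a median of 0.84. A collagen silent in WT passes that filter only through the FIH-KO libraries, which can raise the count of those that rose. The fibroblast and smooth muscle markers include collagens themselves. Of 7 tested, 3 rose and 1, Pdgfra, fell. Their summed level was 1334 and 1732 CPM in FIH-KO and 606 and 740 CPM in WT. Nearly all of it was Col3a1, which is in both lists and had 1320.4 and 1707 CPM in FIH-KO and 588 and 714 CPM in WT (log2 change 1.22, SE 0.18, adjusted p = 4.7e-04), and 5 of the 12 markers did not pass the count filter. The sum therefore says little of the markers other than Col3a1, and the part of the markers in the result was not tested. Beside Col4a5, Col12a1, a fibril-associated collagen, had 59.1 and 40.8 CPM in FIH-KO and 3.64 and 3.14 CPM in WT (log2 change 3.87, SE 0.25, adjusted p = 1.6e-06). Of 23 laminins and other glycoproteins 9 rose and 3 fell. Thbs1, the antiangiogenic thrombospondin, had 43.0 and 69.8 CPM in FIH-KO and 7.57 and 4.98 CPM in WT (log2 change 3.15, SE 0.29, adjusted p = 2.4e-05), and Fbln2, a fibulin of elastic fibres, had 10.9 and 17.3 CPM in FIH-KO and 1.91 and 1.02 CPM in WT (log2 change 3.23, SE 0.38, adjusted p = 1.2e-04). Bgn (biglycan), a small matrix proteoglycan, fell, with 0.375 and 1.56 CPM in FIH-KO and 17.6 and 12.8 CPM in WT (log2 change -3.98, SE 0.42, adjusted p = 5.7e-05). Of 16 collagen hydroxylases and lysyl oxidases 7 rose and 2 fell, with the cross-linking oxidase Loxl3 at 59.8 and 93.3 CPM in FIH-KO and 20.8 and 26.6 CPM in WT (log2 change 1.69, SE 0.20, adjusted p = 1.4e-04). Integrins rose in 6 and fell in 1 of 16 cases (3 rose without WT 1 and 3 fell without FIH-KO 2), among them Itgb5, a receptor for vitronectin, with 170.1 and 166 CPM in FIH-KO and 78.9 and 64.7 CPM in WT (log2 change 1.22, SE 0.12, adjusted p = 2.8e-05). Metalloproteinases and their inhibitors went 6 up and 2 down of 19, led by Mmp19 at log2 change 2.06, SE 0.16, adjusted p = 7.1e-06 and Mmp3 (stromelysin) at log2 change 1.49, SE 0.18, adjusted p = 1.2e-04.

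Among 16 adhesion and epithelial-mesenchymal transition genes 3 rose and 2 fell. Krt8, an epithelial keratin, had 272 and 216 CPM in FIH-KO and 140.2 and 104 CPM in WT (log2 change 1.0, SE 0.16, adjusted p = 8.3e-04), and the transition factor Zeb2 had 72.6 and 52.7 CPM in FIH-KO and 97.7 and 98.6 CPM in WT (log2 change -0.65, SE 0.14, adjusted p = 0.0052). The mesenchymal filament Vim, described above, and Cd44 rose as well, Cd44 not past the test without WT 1 or WT 2. The other member that fell was Snai2, not past the test without WT 1. The keratin Krt18 did not pass the test. The Hippo genes went 2 up and 3 down of 21. Yap1 and Wwtr1 (TAZ) did not pass the test, at log2 changes of -0.19 and -0.07, while Tead3 rose (1.03) and Tead4 fell (-0.89). YAP and TAZ targets fell in 6 of 23 cases and rose in 3 with a median of -0.25 (2 fell without WT 1 or WT 2). Ccn1, the target most used as a readout, had 20.1 and 13.7 CPM in FIH-KO and 31.9 and 26.4 CPM in WT and did not pass (log2 change -0.79, SE 0.33, adjusted p = 0.097). It passed without the count filter (adjusted p = 9.1e-04), with only the 4 libraries at 1% O2 (0.035) and without WT normoxia 1 (0.038) or WT normoxia 2 (0.037). Areg, the growth factor amphiregulin, was called lower, with 57.8 and 23.9 CPM in FIH-KO and 63.6 and 83.8 CPM in WT (log2 change -0.85, SE 0.29, adjusted p = 0.048, not past the test without FIH-KO 2, WT 1, WT 2, FIH-KO normoxia 1, FIH-KO normoxia 2, WT normoxia 1 or WT normoxia 2, with DESeq2, at 10 counts in every library or with only the 4 libraries at 1% O2, where adjusted p reached 0.26). Dystrophin complex and caveolae genes rose in 8 of 17 cases and fell in 2 (5 rose without WT 2). Cavin2, a caveolar coat protein, had 101 and 172 CPM in FIH-KO and 73.0 and 75.6 CPM in WT (log2 change 0.88, SE 0.19, adjusted p = 0.0048), and Dtna, alpha-dystrobrevin, fell, with 2.62 and 1.497 CPM in FIH-KO and 25.0 and 25.7 CPM in WT (log2 change -3.61, SE 0.27, adjusted p = 5.0e-06).

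Signalling genes showed large single changes in both directions. Flt1, the VEGF receptor VEGFR1, had 3.87 and 2.41 CPM in FIH-KO and 44.1 and 42.1 CPM in WT (log2 change -3.77, SE 0.25, adjusted p = 2.0e-06). Egfr had 64.1 and 81.6 CPM in FIH-KO and 29.7 and 33.7 CPM in WT (log2 change 1.20, SE 0.14, adjusted p = 1.3e-04). The receptor tyrosine kinases and their ligands as a list went 6 up and 6 down of 30 (3 rose without WT 2, 3 fell without FIH-KO 2 or WT 2 and 2 fell without either FIH-KO normoxia library or either WT normoxia library). Wnt genes fell in 10 of 25 cases and rose in 3 (5 fell without FIH-KO 2 or WT 1 and 6 fell without WT 2), and Wnt7b, a Wnt ligand of lung epithelium, had 7.81 and 6.44 CPM in FIH-KO and 81.8 and 78.6 CPM in WT (log2 change -3.49, SE 0.19, adjusted p = 1.0e-06). Of the ephrins and their receptors 3 of 12 rose and 4 fell (2 fell without WT 1 or WT 2), with Efna5 at 1.25 and 0.911 CPM in FIH-KO and 7.40 and 12.4 CPM in WT (log2 change -3.17, SE 0.37, adjusted p = 1.1e-04). TGF-beta and BMP genes rose in 10 and fell in 6 of 36 cases (6 rose without WT 2). Bmp2, a secreted ligand, had 7.56 and 9.18 CPM in FIH-KO and 0.617 and 0.273 CPM in WT (log2 change 4.17, SE 0.39, adjusted p = 2.4e-05), while the receptor Tgfbr1 fell (log2 change -1.0, SE 0.16, adjusted p = 7.6e-04). Notch genes went 2 up and 5 down of 16 (3 fell without FIH-KO 2, WT 2 or either WT normoxia library and 2 fell without WT 1). Notch1, whose ankyrin repeats FIH hydroxylates, had 46.2 and 34.4 CPM in FIH-KO and 19.11 and 13.0 CPM in WT (log2 change 1.32, SE 0.21, adjusted p = 9.3e-04), and its ligand Dll1 fell (log2 change -2.0, SE 0.32, adjusted p = 9.8e-04).

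Known FIH substrates outside HIF as a group had 5 that rose and 2 that fell of 17 (1 rose without WT 1 and 3 rose without WT 2), with Tnks2, a tankyrase encoded on chromosome 19, at log2 change -0.59, SE 0.11, adjusted p = 0.0020. IGF binding proteins and insulin receptor substrates went 4 up and 2 down of 9 (2 rose without WT 1 or WT 2), and Irs2, an adaptor of the insulin receptor, rose (log2 change 0.61, SE 0.13, adjusted p = 0.0045). AP-1 and immediate early genes went 1 up and 4 down of 30 (10 fell without FIH-KO 1 and 2 fell without WT 1), with Dusp5, an ERK phosphatase, as the largest (log2 change -2.02, SE 0.20, adjusted p = 3.5e-05). Circadian genes went 3 up and 4 down of 16 (2 fell without WT 1 or WT 2), and Dbp and Tef, output factors of the clock, rose (1.22 and 1.14).

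Imprinted genes, expressed from 1 parental copy, were called in both directions. Of 32 imprinted genes 16 passed the count filter, and of these 4 rose and 7 fell. The lowest log2 change was -9.27, and a gene silent in 1 genotype passes that filter only through the other. Beside Peg3, the antisense RNA Kcnq1ot1 had 2.81 and 5.79 CPM in FIH-KO and 12.9 and 31.2 CPM in WT (log2 change -2.35, SE 0.41, adjusted p = 0.0014), a count that may hold reads of the overlapping Kcnq1 where strand was not used, and Peg10, a retrotransposon-derived gene, had 37.1 and 47.4 CPM in FIH-KO and 72.2 and 85.3 CPM in WT (log2 change -0.90, SE 0.15, adjusted p = 0.0013). Impact, a regulator of GCN2, rose (log2 change 1.08, SE 0.11, adjusted p = 4.8e-05). Of the 8 germline and pluripotency genes that passed the filter, out of 34, 5 rose and 2 fell, but a silent gene passes that filter only through the group in which it is on, so that this count is not support for a direction. Maged2, a MAGE family gene of the X, had 29.7 and 28.1 CPM in FIH-KO and 1.35 and 0.819 CPM in WT (log2 change 4.70, SE 0.33, adjusted p = 2.9e-06). Histone demethylases of the JmjC family and the TET enzymes, which share the FIH cofactors, fell in 7 of 34 cases and rose in 2 (4 fell without FIH-KO 1, FIH-KO 2 or either WT normoxia library, 2 fell without WT 1 and 3 fell without WT 2). Tet2, which oxidises methylcytosine, had 29.6 and 27.1 CPM in FIH-KO and 62.2 and 71.6 CPM in WT (log2 change -1.24, SE 0.15, adjusted p = 1.3e-04), and Kdm4b, a histone H3 demethylase, had 154 and 142 CPM in FIH-KO and 99.1 and 76.5 CPM in WT (log2 change 0.75, SE 0.15, adjusted p = 0.0026). Of 23 Hox genes 4 rose and 2 fell, with Hoxd8 and Hoxd10 both higher (1.08 and 1.19) and Hoxb9 lower (-2.61).

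Calls were uneven along the genome. On chromosome 19, which carries Hif1an, 206 of 476 tested genes fell (43.3%) and 19 rose (3.99%), with a median log2 change of -0.45. On chromosome 3, 248 of 683 fell (36.3%) and 35 rose (5.12%), with a median of -0.41. The medians of these chromosomes at 21% O2 were -0.38 and -0.36. Fallen members of several lists above lie on these 2 chromosomes. They were 3 of 11 among the translation factors and 2 of 7 among the JmjC and TET genes. They were 1 of 2 among the interferon factors, 1 of 4 among the AP-1 genes and 3 of 37 in ribosome biogenesis. For such genes a change of the gene and a shift of its chromosome were not separated. Without WT 1 or WT 2 the lower calls were 133 and 135 on chromosome 19, and without WT 1 they were 154 on chromosome 3, where the higher calls were 18 without WT 1 and 20 without WT 2. Chromosomes 2 and 16 leaned the other way, with 28.8% and 25.2% of genes higher and medians of 0.21 and 0.18. The X chromosome had 24.4% higher, a median of 0.14 and 42 of the 270 genes that rose past 4-fold. Without WT 1 the higher calls fell from 320 to 188 on chromosome 2, from 107 to 63 on chromosome 16 (71 without WT 2) and from 115 to 74 on the X. Without FIH-KO 1 or FIH-KO 2 the chromosome 19 median was -0.41 and -0.50, and that of chromosome 3 was -0.33 and -0.43. Copy number was not measured, so that a copy difference between the lines and a change in transcription cannot be told apart here. The log2 change of Hif1an, -0.85, stands beside the chromosome 19 median of -0.45.

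**Figure D5:**
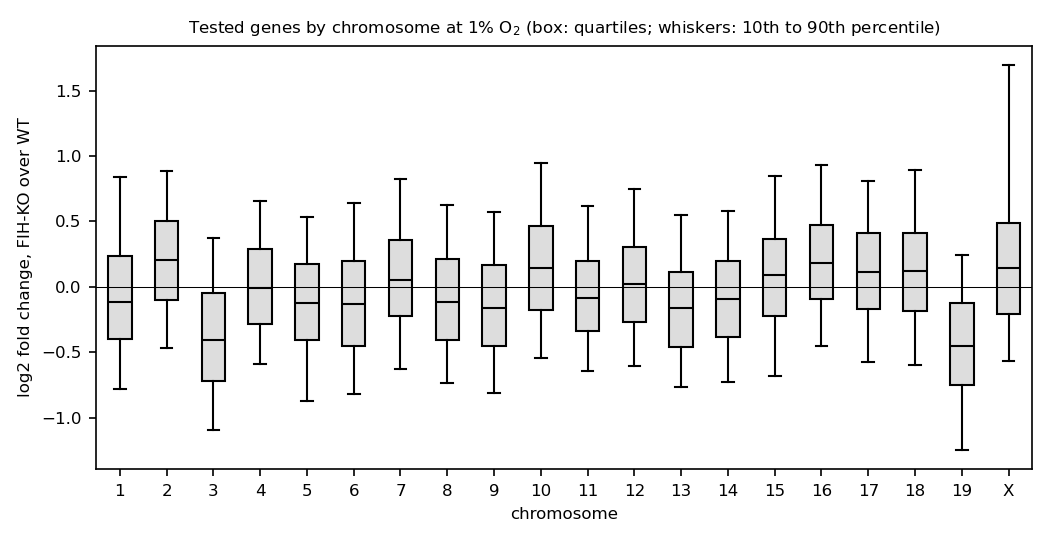
Log2 fold change of FIH-KO over WT at 1% O2 for the tested genes of each chromosome. Boxes span the quartiles with the median as a line, whiskers run from the 10th to the 90th percentile, and chromosomes 3 and 19 sit lowest, with medians of -0.41 and -0.45.

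Oxygen changed the size of the FIH-KO effect for no gene past the adjusted threshold. The test of the difference between the effect at 1% and at 21% O2 called 0 genes by edgeR, with 925 genes (6.64%) at an unadjusted p under 0.05 and a smallest adjusted p of 0.14. DESeq2 called 40, and the edgeR count was 39 without FIH-KO 1. Of the genes called at 1% O2, 2608 were also called at 21% O2, 9 of them with the opposite sign, and 1288 were called only at 1% O2. Of these 1288, 1166 had the same sign at 21% O2, and the difference itself was not called for any. The gene with the smallest p was Iah1, an esterase gene, lower in FIH-KO at 1% O2 (27.2 and 26.2 CPM in FIH-KO and 56.1 and 52.9 CPM in WT) and higher at normoxia, with 28.5 and 21.6 CPM in FIH-KO and 16.6 and 18.2 CPM in WT at 21% O2 (log2 change 0.52, adjusted p = 0.025), and the test of the difference gave unadjusted p = 1.0e-05, adjusted p = 0.14. Angptl2, a secreted angiopoietin-like protein, had 184 and 169 CPM in FIH-KO and 81.8 and 71.0 CPM in WT at 1% O2 (log2 change 1.21) and 224 and 230.5 CPM in FIH-KO and 211 and 185 CPM in WT at 21% O2 (log2 change 0.20, adjusted p = 0.21). Its test gave unadjusted p = 4.6e-05, adjusted p = 0.19. Pdgfa, a growth factor for mesenchymal cells, had 34.2 and 29.4 CPM in FIH-KO and 17.5 and 18.7 CPM in WT at 1% O2 (log2 change 0.81) and 44.7 and 35.2 CPM in FIH-KO and 8.74 and 8.71 CPM in WT at 21% O2 (log2 change 2.19, adjusted p = 6.1e-06), with unadjusted p = 5.8e-05, adjusted p = 0.19.

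Several HIF targets were among the genes with a small unadjusted p for that difference. Vegfa had 74.6 and 70.9 CPM in FIH-KO and 30.8 and 32.3 CPM in WT at 21% O2 (log2 change 1.20, adjusted p = 3.0e-04), beside the log2 change of 0.09 at 1% O2, with unadjusted p = 3.1e-04, adjusted p = 0.19. Pdk1 had 74.4 and 45.6 CPM in FIH-KO and 98.8 and 75.2 CPM in WT at 21% O2 (log2 change -0.54, adjusted p = 0.060) and Ldha had 1466 and 1497 CPM in FIH-KO and 2384 and 1970.0 CPM in WT at 21% O2 (log2 change -0.56, adjusted p = 0.0096), so that both leaned lower in FIH-KO at normoxia and higher at 1% O2, with unadjusted p = 9.9e-04, adjusted p = 0.32 for Pdk1 and unadjusted p = 6.1e-04, adjusted p = 0.27 for Ldha. Plod2, a collagen lysyl hydroxylase, had 453 and 385 CPM in FIH-KO and 388 and 388 CPM in WT at 1% O2, where it did not pass the test, and 77.7 and 74.6 CPM in FIH-KO and 146 and 125 CPM in WT at 21% O2 (log2 change -0.83, adjusted p = 4.8e-04). In the glycolysis list, 11 of 24 genes had an unadjusted p under 0.05 for the difference, beside 6.64% of all tested genes. Its median log2 change was -0.36 at 21% O2 and 0.13 at 1% O2. Such counts were not particular to HIF targets. They were 7 of 16 for circadian genes, 11 of 45 for the unfolded protein and integrated stress responses and 8 of 30 for AP-1 genes. For p53 targets the count was 7 of 29, and for ribosome biogenesis it was 0 of 59. None of these passed the adjustment, so that they are given as values.

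Some genes differed strongly between the FIH-KO libraries and their group mean describes neither. Ripor2 had 6.81 and 0.911 CPM in FIH-KO and 1.85 and 2.80 CPM in WT. Car6, a secreted carbonic anhydrase, had 24.6 and 5.14 CPM in FIH-KO and 15.7 and 16.7 CPM in WT, and Ranbp3l had 2.69 and 13.9 CPM in FIH-KO and 9.92 and 12.2 CPM in WT. Prl2c3, a placental prolactin-family gene with close copies, had 141 and 32.7 CPM in FIH-KO and 22.5 and 16.9 CPM in WT. Slco4a1, an organic anion transporter, had 20.9 and 71.1 CPM in FIH-KO and 64.8 and 66.8 CPM in WT. In each case the FIH-KO libraries differed by more than 3-fold. With all libraries Prl2c3 alone of these genes passed the test (log2 change 2.14, SE 0.54, adjusted p = 0.012, not past the test without FIH-KO 1, WT 1 or WT 2 or with DESeq2, where adjusted p reached 0.18), and each of the others passed when 1 FIH-KO library was left out.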

How the data were processed

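RNA-seq read counts per gene were analysed for 8 libraries of LLC cells, 2 of each genotype and oxygen level. The authors prepared them with a stranded mRNA kit, used STAR (build GRCm39) for paired reads and HTSeq for counting, and deposited whole-number counts. The annotation release, strand setting and treatment of multiply mapped reads are not given in the sources used here. Counts were tested as deposited in edgeR 4.0.16 (R 4.3.3) with filterByExpr, TMM scaling, 4 group means over all 8 libraries and the quasi-likelihood test of FIH-KO minus WT at 1% O2, with Benjamini-Hochberg adjustment over 13933 genes. Gene positions came from GENCODE vM39, which held 13898 of the tested genes. Libraries at 1% O2 held 14519731 to 18177016 reads. Where every library of a group had at most 3 counts, a fold is given as a bound against 3 counts in each library. Promoters were RefSeq windows of GRCm38.p6, found for 9749 tested genes.

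Named genes were Hif1an, the top 15 in each direction (mean of at least 50 counts, groups not overlapping), up to 3 in each direction per list beside members always named, the 10 with most reads in each direction, the 10 with the smallest p for the difference between oxygen levels, those with opposite signs at the 2 levels and the 10 with the largest ratio between FIH-KO libraries. Igtp, Oas3, Nop2, Car9, Aldoc, Arnt2 and Cited1 were chosen after their values were seen. The members and the gene lists were chosen with earlier results of these data known, so the lists are described by counts and medians with no test. DESeq2 1.42.0, other scalings and filters, a replicate block and leaving out each library were run as alternatives. Results on some genes are not reported here.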

Additional observations from a re-analysis of the deposited data

How the results depend on the processing

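Alternatives were other scalings (RLE, upper quartile), DESeq2, no count filter, a minimum of 10 counts in all libraries, a fit on the 1% O2 libraries alone, a replicate block and each of the 8 libraries left out, and, chosen after seeing the data, gene list medians without the members on chromosomes 3 and 19. The 3896 calls at 1% O2 were 2170 to 3887 with 1 library left out, fewest without WT 1 (1204 higher and 966 lower) and next without WT 2 (2380, with 1272 higher and 1108 lower), where an arm rests on 1 library that is assumed to vary like the other groups. The upward calls ranged from 1204 to 2140 and the downward calls from 966 to 1747. The 531 genes past 4-fold were 119 with 10 counts in every library, which drops genes near 0 in 1 genotype, and 451 to 578 with 1 library left out. The difference between oxygen levels, called for 0 genes, was called for 40 with DESeq2, 143 without the count filter and 0 to 39 with 1 library left out (39 without FIH-KO 1, 1 without WT normoxia 1). The cause was not tested. Hif1an kept its direction and call in every fit run. Replicate numbers were shared between groups by number alone: the correlation of same-numbered deviations was 0.19 between genotypes at 1% O2 and -0.003 at 21% O2. With the replicate block 4039 genes were called at 1% O2 and 5 for the difference between oxygen levels. Of 354 named genes over all these alternatives, 454 results of 5253 lost their call, 21 gained one and 24 turned direction, each of the last when 1 library was left out, among genes not called. With 1 library left out their log2 changes ranged over Ep300 -0.070 to 0.22, Crebbp -0.033 to 0.28, Egln1 -0.093 to 0.30, Slc2a1 -0.23 to 0.62, Hk2 -0.41 to 0.13, Vegfa -0.15 to 0.33, Ccnd1 -0.19 to 0.018, Cdkn1a -0.074 to 0.48, Cdkn1b -0.013 to 0.24, Aurkb -0.40 to 0.022, Cdca3 -0.41 to 0.18, H2-K1 -0.62 to 0.27, H2-D1 -0.17 to 0.21, Krt18 -0.14 to 0.37, Ripor2 -1.29 to 1.56, Ranbp3l -2.03 to 0.38, Car6 -1.62 to 0.60, Acsbg1 -2.12 to 0.018 and Slco4a1 -1.65 to 0.15. Of 1338 results on medians of lists and chromosomes, 270 moved by more than the replicate spread. Genes under about 50 reads were called least often, and depth limits what can be said of them.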
